A study of Mus musculus with 8 samples.

Results

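Complement and coagulation factors are plasma proteins, and 43 of their genes were followed here in the livers of mice lacking Amacr and of wild-type mice. The list was drawn up from the known products of liver, 18 genes of complement and 25 of coagulation and fibrinolysis. A probe set was found for 41 of the 43, 17 of complement and 24 of coagulation, among 16492 probe sets tested. C4b and Kng1 had no probe set of their own in the table and were not analysed here. The probe sets of C3, Cfd and Cpb2 were named from the Entrez number in their identifier alone, because the platform annotation used here did not list them.

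All animals were male C57BL/6 mice aged 3 to 3.5 months. The controls were wild-type and the others were Amacr-/-, with 4 liver arrays each. Amacr encodes the racemase that prepares bile acid side chains and branched fatty acids for peroxisomal breakdown. The sources used here do not say how the allele was made, or whether the animals were fed or fasted before collection. Values below are log2 RMA signals, and a difference is the knockout mean minus the wild-type mean on that scale. RNA came from whole liver, so fewer cells of a type and less RNA per cell cannot be told apart.

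Complement is a cascade of proteases that coats microbes with C3 fragments and ends in a pore made of the terminal components. It is started by the classical, lectin or alternative route, and inhibitors in plasma restrain each step. Coagulation is a cascade of a similar kind: the contact and tissue factor routes both activate thrombin, which turns fibrinogen into fibrin, while antithrombin and the protein C system hold it back and plasmin dissolves the clot. Hepatocytes make most of these proteins. Several of them, fibrinogen and C3 among them, are acute phase proteins whose genes respond to interleukin signals, and in human hepatocytes the bile acid receptor FXR is known to raise fibrinogen transcription.

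The arrays had medians between 6.62 and 6.66. Amacr lay between 11.68 and 12.06 in the wild-type arrays and between 5.23 and 5.52 in the knockout arrays, so its values went with the labels in all 8. Knockout replicate 2 stood apart from the rest, with an array quality weight of 0.2998 against 0.9349 to 1.753 for the others. Of 6 measured hepatocyte markers, Alb, Ttr, Apoa1, Apob, Tat and Fabp1, the mean log2 level lay between 14.15 and 14.21 in wild-type arrays and between 14.11 and 14.26 in knockout arrays, and 0 passed the test.

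No complement or clotting gene passed the test between Amacr-/- and wild-type livers, and nearly all differences in signal were bounded within 1.5-fold. In limma, with Benjamini-Hochberg adjustment across all 16492 probe sets, 0 of 17 complement genes and 0 of 24 coagulation genes passed an adjusted p of 0.05, where 0.115% of all probe sets passed, 0.0728% with a higher and 0.0424% with a lower knockout mean. The smallest adjusted p was 0.330 among the complement genes and 0.225 among the coagulation genes. At an unadjusted p under 0.05 there were 4 of 41, or 9.76%, where 11.3% of all probe sets lay under that level. These were C8g, with a higher knockout mean, and Mbl2, F5 and Proc, with a lower one. Of all probe sets, 5.66% lay under that level on the higher side and 5.63% on the lower side, and of those with a mean of at least 10 the share was 18.9% in either direction. The count of 4 was 8 without knockout replicate 2 and 2 without wild-type replicate 3 or knockout replicate 3, with 0 members past the adjusted threshold each time. Calls over the whole table, 19 in the main fit, moved the same way in these fits. They were 39 with knockout 2 left out, 3 with wild-type 3 left out and 7 with knockout 3 left out. Whether the members under an unadjusted p of 0.05 moved more than other probe sets was not tested. The 95% confidence interval of the difference lay within 1.5-fold in either direction for 39 of the 41, against 88.3% of all probe sets and 83.7% of those with a mean of at least 10. It lay within 2-fold for all 41, against 96.5% of all probe sets. Only Cfd and C9 had intervals that passed 1.5-fold.

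**Figure D1:**
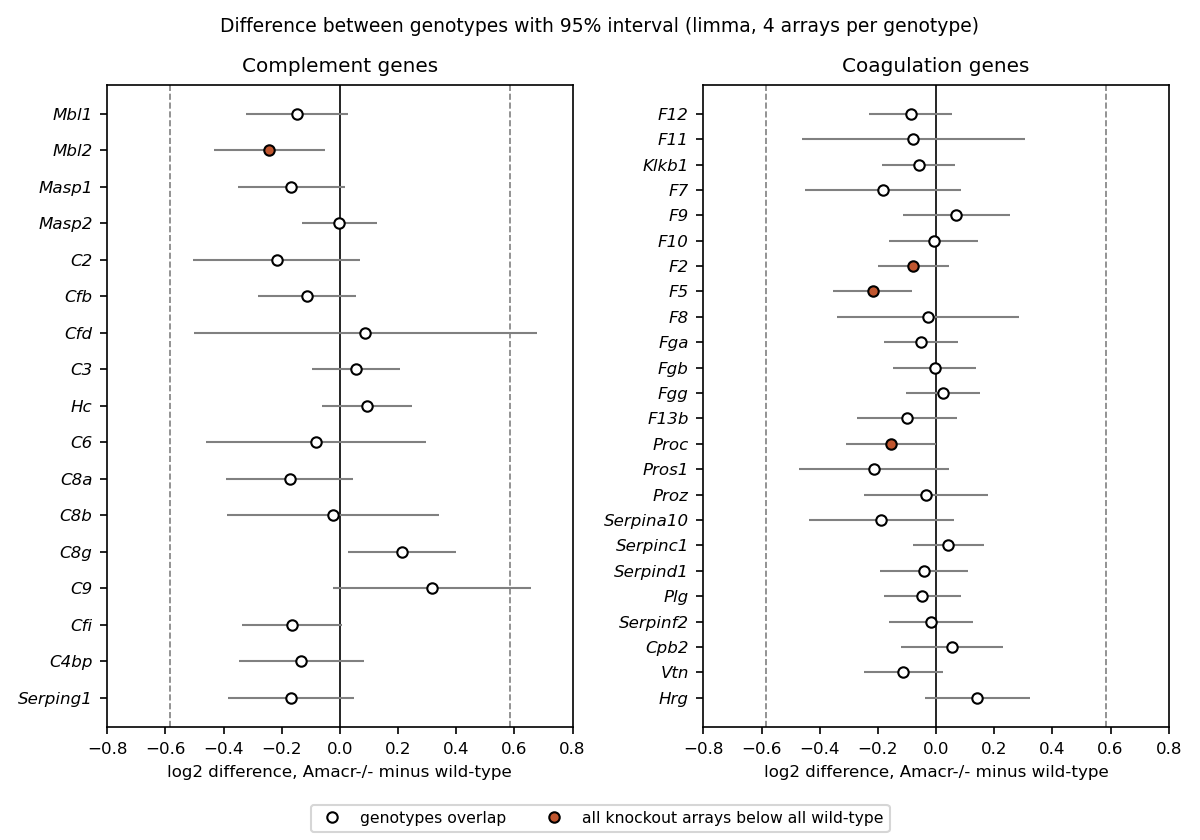
Difference between Amacr-/- and wild-type livers for each complement gene (left) and coagulation gene (right), on the log2 scale. Points are limma estimates, lines are 95% intervals from 4 arrays per genotype, dashed lines mark a 1.5-fold difference, and filled points mark genes whose knockout arrays all lay below all wild-type arrays. Only the intervals of Cfd and C9 cross a dashed line.

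Small differences leaned to 1 side. The knockout mean was lower for 31 of the 41 genes, or 75.6%, where 43.8% of all probe sets had a lower mean. Among complement genes this was 12 of 17, with a median difference of -0.11, and among coagulation genes 19 of 24, with a median difference of -0.05. The median over all probe sets tested was 0.02. Most of these genes are bright on the array, 38 of the 41 having a mean of at least 10. Among all 1421 probe sets that bright, 51.2% had a lower mean in knockout and the median difference was -0.005. The 6 measured hepatocyte markers leaned the same way, with a lower mean in 5, or 83.3%, and a median difference of -0.0325. Whether the lean is particular to the complement and coagulation genes was not tested. The coagulation genes varied little, with a median SD of 0.06 in wild-type and 0.07 in knockout arrays, and the complement genes somewhat more, with 0.10 and 0.13. The genotype means of C3, F2, Fga, Fgb, Fgg and Serpinc1 lay between 14.03 and 14.28, near the highest value of each array, 14.94 to 15.05. Whether signals so near the top of the scale follow the amount of transcript in full was not tested, so small SDs and narrow intervals there describe signal.

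The genotypes did not overlap for 4 of the 41 genes, or 9.76%, where 6.67% of all probe sets, and 13.7% of those with a mean of at least 10, did not overlap. All 4 were lower in knockout, a direction in which 3.25% of all probe sets separated, while 3.42% separated in the other. The gap between the lowest wild-type and the highest knockout array was 0.13 for F5. It was 0.03 for Proc, 0.02 for Mbl2 and 0.01 for F2, and the deposited values were written in steps of 0.01.

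**Figure D2:**
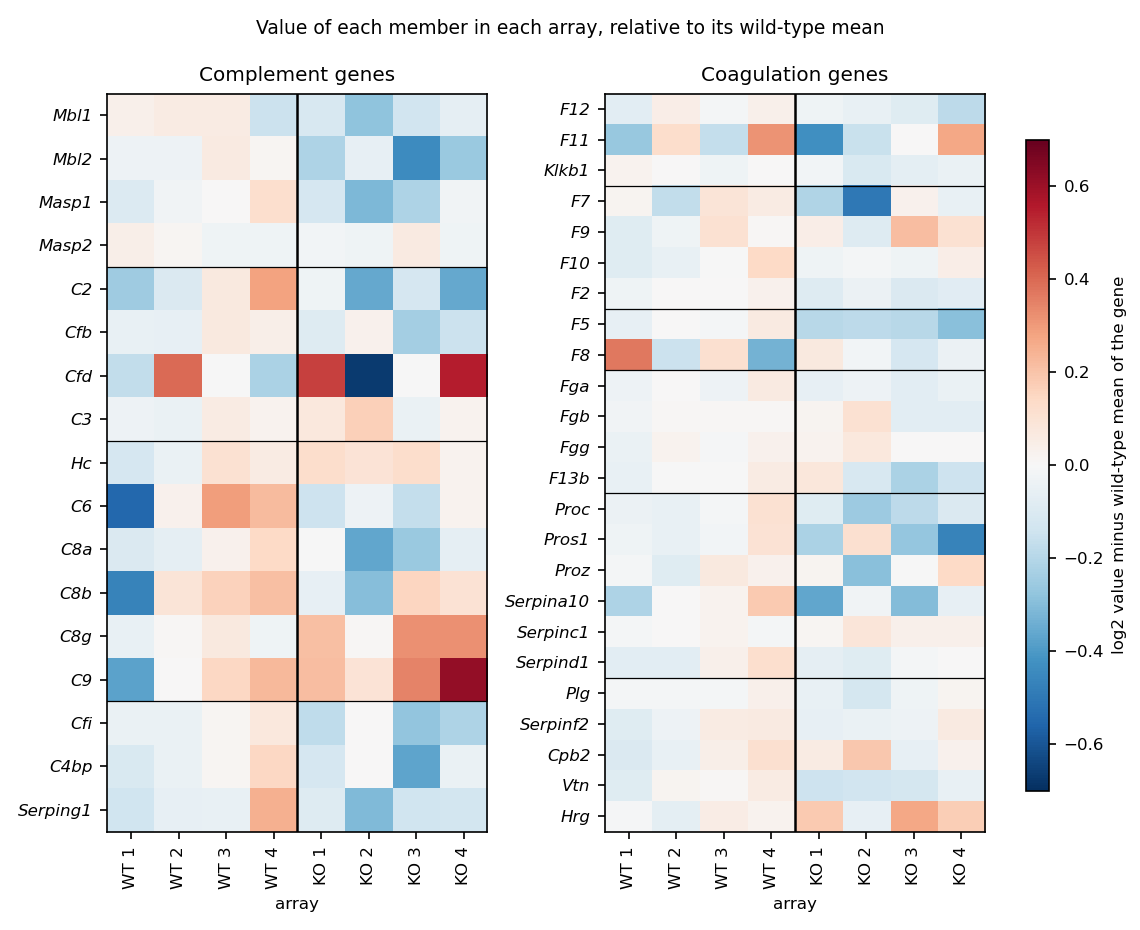
Value of each gene in each array (columns, WT wild-type and KO Amacr-/-, replicates 1 to 4) after subtracting the gene's wild-type mean, in log2 units shown by colour. Thin lines separate the roles in the cascades: lectin pathway, convertases, terminal pathway and inhibitors on the left, and contact system, proteases, cofactors, clot proteins, anticoagulants and fibrinolysis on the right. Most cells are pale, and the deepest colours belong to Cfd, C9, C6 and F7 in single arrays.

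The lectin pathway starts complement when mannose-binding lectins recognise sugars on a microbe and activate the proteases MASP1 and MASP2. Mbl2, which encodes the lectin MBL-C, measured 12.69, 12.69, 12.79 and 12.74 in the wild-type arrays, replicates 1 to 4, and 12.51, 12.67, 12.29 and 12.47 in the knockout arrays in the same order. Every knockout array was below every wild-type array, knockout replicate 2 by the least. The difference of -0.24 (SE 0.08, limma adjusted p = 0.330) did not pass over all probe sets. Mbl1, for the related MBL-A, differed by -0.15 and Masp1 by -0.17, each with overlapping genotypes, and Masp2 by -0.0025 with a 95% interval from -0.13 to 0.13. All 4 genes of this route had a lower mean in knockout, none past the threshold. The promoter of Mbl2 is shown because this gene had the smallest p among the complement genes. It lies at chr19:30232678-30232977 on the plus strand of GRCm38.p6, from RefSeq, and runs from 250 bases before the transcript start to 50 after it; none of the liver factor motifs described further on was found in it.
Mbl2: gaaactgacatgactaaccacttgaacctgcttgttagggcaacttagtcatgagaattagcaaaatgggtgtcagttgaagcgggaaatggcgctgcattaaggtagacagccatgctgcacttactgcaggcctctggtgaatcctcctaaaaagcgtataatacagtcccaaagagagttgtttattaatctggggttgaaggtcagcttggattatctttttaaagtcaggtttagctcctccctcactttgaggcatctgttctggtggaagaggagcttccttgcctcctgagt

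Next come the convertases, enzyme complexes that split C3 and then C5. C3, the central component of all routes, was 14.08, 14.07, 14.17 and 14.14 in wild-type arrays and 14.19, 14.28, 14.07 and 14.14 in knockout arrays. Both groups had 14.07 as their lowest value, and the difference was 0.06 (SE 0.07, limma adjusted p = 0.790) with a 95% interval from -0.10 to 0.21. C2, the protease of the classical and lectin convertase, was 10.07, 10.22, 10.39 and 10.60 in wild-type arrays and 10.29, 9.96, 10.20 and 9.96 in knockout arrays. Its difference of -0.22 (SE 0.13, limma adjusted p = 0.556) was below the wild-type SD of 0.23. It was -0.12 without wild-type replicate 4, and -0.077 with knockout replicate 2 left out as well. Cfb, the matching protease of the alternative route and the neighbour of C2 on chromosome 17, differed by -0.11. Cfd, the protease that activates factor B and is made mainly in fat, had its arrays between 5.94 and 6.56 in wild type and between 5.49 and 6.71 in knockout. No other member had a standard error as large as that of Cfd, 0.26.

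The terminal components C5 to C9 assemble into the membrane attack complex. Members of this group pointed in both directions, with 3 lower and 3 higher means and a median difference of 0.03. C9, which forms the ring of the pore, was 12.05, 12.43, 12.57 and 12.65 in wild-type arrays and 12.64, 12.52, 12.77 and 13.04 in knockout arrays. Its difference of 0.32, or 1.25-fold (SE 0.15, limma adjusted p = 0.468), was the largest among the 41 members, and it rested on overlapping groups, with wild-type replicate 1 lowest and knockout replicate 4 highest. Without wild-type replicate 1 the C9 difference was 0.19, smaller in size than that of C2, -0.30, with the same array left out. C8g, the lipocalin-like gamma chain of C8, was 12.72, 12.78, 12.84 and 12.74 in wild-type arrays and 12.98, 12.78, 13.09 and 13.09 in knockout arrays. Knockout replicate 2 fell within the wild-type values and the other 3 above them, with a difference of 0.22 (SE 0.08, limma adjusted p = 0.373). Without knockout replicate 2 the C8g difference was 0.28 with a limma adjusted p of 0.111, the smallest reached by any member in any alternative.

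The genes for the other C8 chains, C8a and C8b, are neighbours on chromosome 4 and differed by -0.17 and -0.025. The difference of C8a was -0.11 without knockout replicate 2. The 3 chains of C8 form 1 protein, and their transcripts had differences of unlike sign, none of them past the threshold. Hc, which encodes C5, was 12.78, 12.85, 13 and 12.95 in wild-type arrays and 13.02, 12.99, 13.02 and 12.92 in knockout arrays. The genotypes overlapped for Hc, and the difference was 0.09 (SE 0.07, limma adjusted p = 0.640). C6 had a difference of -0.08 with wild-type replicate 1, at 10.81, below all other arrays, which lay between 11.19 and 11.65. Wild-type replicate 1 was the lowest of all 8 arrays for 5 of the 6 terminal genes, C6, C8b, C9, Hc and C8g, or 83.3%, against 10.4% of all probe sets. Those 5 include all 3 terminal genes with a higher knockout mean. C6 and C9 lie on chromosome 15, as Amacr does, with 38 and 29 protein-coding genes between them and Amacr in the RefSeq table, and whether their position bears on these values was not tested.

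The inhibitors of complement among the members, Cfi, C4bp and Serping1, were lower in mean throughout, again without a call. Cfi, the protease that cleaves C3b and C4b, differed by -0.17 (SE 0.08, limma adjusted p = 0.455). C4bp, its cofactor for C4b, differed by -0.13, and Serping1, the C1 inhibitor that also restrains the contact system of coagulation, by -0.17. Wild-type replicate 4 was the highest array for all 3. The difference of C4bp was -0.085 without that array and -0.054 without knockout replicate 3. That of Serping1 was -0.084 without wild-type replicate 4, and -0.037 with knockout replicate 2 left out as well. Their 95% intervals all included 0 and none reached 1.5-fold.

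In coagulation, the contact system (F12, F11, Klkb1) starts clotting on charged surfaces. Klkb1, which encodes prekallikrein, lay between 11.76 and 11.81 in wild-type and between 11.68 and 11.77 in knockout arrays, a difference of -0.06. F12 differed by -0.09. F11, the neighbour of Klkb1 on chromosome 8, differed by -0.08, but its arrays ranged from 10.49 to 11.07 in wild type and from 10.33 to 11.03 in knockout, the widest spread of this group.

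Proteases of the later steps depend on vitamin K for their calcium-binding domain. F2, which encodes prothrombin, was 14.08, 14.11, 14.11 and 14.14 in wild-type arrays and 14.02, 14.07, 14.01 and 14.03 in knockout arrays. The groups did not overlap, yet the difference was -0.08 (SE 0.05, limma adjusted p = 0.620), a 1.06-fold difference in signal. F7, the partner of tissue factor, was 10.87, 10.68, 10.94 and 10.91 in wild-type arrays and 10.64, 10.35, 10.88 and 10.80 in knockout arrays, a difference of -0.18 (SE 0.12, limma adjusted p = 0.593). Without knockout replicate 2, the lowest array for F7, that difference was -0.08. F10, which lies next to F7, differed by -0.0075 and F9, the haemophilia B gene on the X chromosome, by 0.07.

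The cofactors speed these proteases on membranes. F5, the cofactor that joins factor Xa to make thrombin, was 12.13, 12.19, 12.17 and 12.25 in wild-type arrays and 11.99, 12, 11.99 and 11.89 in knockout arrays. All 4 knockout arrays were below all wild-type arrays, and both groups were tight, with SDs of 0.05. The difference was -0.22 with a 95% interval from -0.35 to -0.08, or 1.16-fold (SE 0.06), and its limma adjusted p of 0.225 was the smallest among the 41 genes but did not pass. Over all 17 alternatives the F5 difference stayed between -0.24 and -0.19 with adjusted p up to 0.468. F8, the haemophilia A gene, which endothelial cells of the liver are known to express, differed by -0.03 with wild-type arrays from 7.13 to 7.83. The promoter of F5, chr1:164151585-164151884 on the plus strand, is shown for the gene with the clearest separation between genotypes, and likewise held none of the liver factor motifs.
F5: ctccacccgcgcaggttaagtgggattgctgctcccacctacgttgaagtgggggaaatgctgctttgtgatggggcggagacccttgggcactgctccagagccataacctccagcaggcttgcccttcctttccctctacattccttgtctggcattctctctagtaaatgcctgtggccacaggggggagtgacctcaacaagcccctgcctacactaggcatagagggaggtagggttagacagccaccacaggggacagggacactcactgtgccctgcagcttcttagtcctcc

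**Figure D3:**
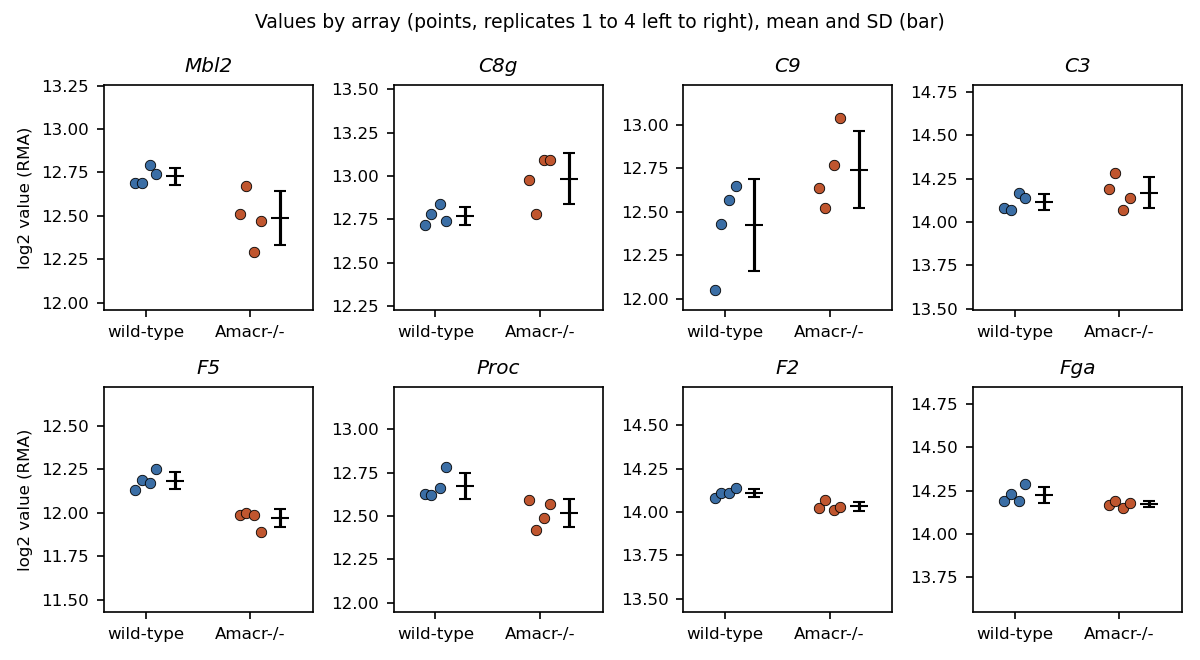
Log2 RMA values of 8 genes in the 4 wild-type and 4 Amacr-/- arrays, with the mean and SD of each genotype beside the points. Every panel spans the same height of log2 units. Knockout points of F5 lie clear below the wild-type points, those of Mbl2, Proc and F2 lie below by 0.03 or less, and those of C8g, C9, C3 and Fga overlap with wild type.

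Fibrinogen is built from the 3 chains of Fga, Fgb and Fgg, which are neighbours on chromosome 3. Fga was 14.19, 14.23, 14.19 and 14.29 in wild-type arrays and 14.17, 14.19, 14.15 and 14.18 in knockout arrays, a difference of -0.05 with a 95% interval from -0.18 to 0.07. Fgb was 14.18, 14.21, 14.21 and 14.21 in wild-type arrays and 14.22, 14.31, 14.13 and 14.13 in knockout arrays, a difference of -0.005 with an interval from -0.15 to 0.14. Fgg was 14.21, 14.28, 14.25 and 14.29 in wild-type arrays and 14.28, 14.33, 14.26 and 14.26 in knockout arrays, a difference of 0.025 with an interval from -0.10 to 0.15. The genotypes overlapped for all 3, knockout replicate 2 gave the highest value for Fgb and Fgg, and the limma adjusted p was 0.759 for Fga, 0.981 for Fgb and 0.891 for Fgg. F13b, which carries the clot-crosslinking factor XIII in plasma, differed by -0.10.

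The promoters of the fibrinogen genes are shown because these neighbours encode 1 protein and because 2 of the 3 carry the motifs of liver transcription factors. Fgg lies at chr3:83007474-83007773 on the plus strand, Fga at chr3:83025903-83026202 on the plus strand and Fgb at chr3:83049814-83050113 on the minus strand of GRCm38.p6, from RefSeq. Capitals mark a core site of hepatocyte nuclear factor 1 (GTTAAT or its reverse ATTAAC) and the site of CCAAT/enhancer binding proteins (TTGCNNAA or its reverse TTNNGCAA). Relative to the transcript start, the first begins at -43 in Fga and -29 in Fgb, and the second at -135 in Fga and -80 in Fgb, while Fgg has neither in this window.
Fgg: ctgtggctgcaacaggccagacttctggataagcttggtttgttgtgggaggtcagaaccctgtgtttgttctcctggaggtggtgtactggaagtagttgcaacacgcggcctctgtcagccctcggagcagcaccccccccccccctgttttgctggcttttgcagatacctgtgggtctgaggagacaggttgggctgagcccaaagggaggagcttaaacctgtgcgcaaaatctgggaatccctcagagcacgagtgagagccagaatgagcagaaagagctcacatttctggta
Fga: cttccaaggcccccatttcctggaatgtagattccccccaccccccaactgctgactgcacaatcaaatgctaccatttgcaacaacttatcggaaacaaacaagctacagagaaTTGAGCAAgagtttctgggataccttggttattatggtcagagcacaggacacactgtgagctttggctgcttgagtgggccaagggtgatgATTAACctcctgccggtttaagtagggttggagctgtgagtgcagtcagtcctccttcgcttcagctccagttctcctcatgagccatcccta
Fgb: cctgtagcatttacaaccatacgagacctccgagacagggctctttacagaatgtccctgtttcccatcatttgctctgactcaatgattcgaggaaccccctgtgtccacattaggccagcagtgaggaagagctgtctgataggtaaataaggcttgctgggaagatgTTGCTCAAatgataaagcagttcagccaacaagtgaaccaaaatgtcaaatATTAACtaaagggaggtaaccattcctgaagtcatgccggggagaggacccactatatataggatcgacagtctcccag

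Promoters were at hand for 33 of the 41 genes, 34 promoters in all. The site of hepatocyte nuclear factor 1 was in 10 of the 34, or 29.4%, against 7.10% of the 32851 promoters of the same length in the table. The site of CCAAT/enhancer binding proteins was also in 10, or 29.4%, against 10.8% of all, and in 8 of 21 coagulation against 2 of 13 complement promoters. A STAT3 site (TTCNNNGAA, its own reverse) was in 7, or 20.6%, against 8.30% of all, Fga and Fgb included. The inverted repeat of the bile acid receptor was in 0 of 34 and in 0.0274% of all, a hepatocyte nuclear factor 4 site (CAAAGTCCA or its reverse TGGACTTTG) in 0 and in 0.475%, and a TATA box (TATAAA or its reverse TTTATA) in 5, or 14.7%, and in 13.6%. Both strands were searched, overlaps between motifs were not removed, and a match is a run of letters, not a bound site. The motifs of the bile acid receptor and of hepatocyte nuclear factor 4 are rare over all promoters. Their counts of 0 in 34 therefore cannot tell the members from other genes.

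Anticoagulant genes were lower in mean for 5 of 6. Proc, which encodes protein C, the protease that destroys the activated cofactors, was 12.63, 12.62, 12.66 and 12.78 in wild-type arrays and 12.59, 12.42, 12.49 and 12.57 in knockout arrays. The groups did not overlap, by a gap of 0.03, and the difference was -0.16 (SE 0.07, limma adjusted p = 0.439). Pros1, for protein S, the cofactor of protein C, was 9.08, 9.06, 9.09 and 9.21 in wild-type arrays and 8.89, 9.22, 8.84 and 8.64 in knockout arrays. Its 4 wild-type arrays lay close together, knockout replicate 2 lay above them and the other knockout arrays below. The difference was -0.21 (SE 0.11, limma adjusted p = 0.519), and -0.32 without knockout replicate 2, with an adjusted p of 0.132, against -0.13 without knockout replicate 4.

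Serpina10, which encodes an inhibitor of factor Xa that works with protein Z, was 12.10, 12.32, 12.34 and 12.50 in wild-type arrays and 11.95, 12.29, 12.01 and 12.26 in knockout arrays. The genotypes overlapped, and the difference was -0.19 (SE 0.11, limma adjusted p = 0.560). Proz, for protein Z itself, differed by -0.03. Serpinc1, for antithrombin, lay between 14.15 and 14.19 in wild-type and between 14.18 and 14.25 in knockout arrays, a difference of 0.04. Serpind1, for heparin cofactor II, differed by -0.04.

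Fibrinolysis dissolves the clot through plasmin. Plg, the plasminogen gene, was 13.83, 13.83, 13.83 and 13.88 in wild-type arrays and 13.79, 13.72, 13.81 and 13.86 in knockout arrays. The ranges overlapped, and the difference was -0.05 (SE 0.06, limma adjusted p = 0.795). Serpinf2, for antiplasmin, differed by -0.02 and Cpb2, a carboxypeptidase that protects fibrin, by 0.06. Vtn, for the adhesive protein vitronectin, which also restrains the terminal complement complex, differed by -0.11, and Hrg, a plasminogen-binding glycoprotein, by 0.14. None of the 5 had an interval that reached 1.5-fold.

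The lean was read array by array. Wild-type replicate 4 was the sole highest of all 8 arrays for 17 of the 41 genes, or 41.5%, against 9.03% of all probe sets. Relative to each gene's wild-type mean, the complement medians of the wild-type arrays, by replicate number, were -0.10, -0.04, 0.06 and 0.08. Those of the knockout arrays were -0.06, -0.04, -0.13 and -0.03, and knockout replicate 3 alone lay below the wild-type arrays. For coagulation they ran from -0.05 to 0.06 in wild type and from -0.06 to -0.04 in knockout, so wild-type replicate 1 lay among the knockout arrays in both lists. With wild-type replicate 4 and knockout replicate 2 both left out, 25 of 41 genes had a lower mean. The complement median was then -0.037 and the coagulation median -0.038. Knockout replicate 2 was the sole lowest array for 12 of the 41, so a smaller lean without this pair follows in part from the choice of arrays. The coagulation median was -0.033 without wild-type replicate 4 alone. Without wild-type replicate 1 the medians lay further from 0, at -0.168 for complement and -0.058 for coagulation.

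**Figure D4:**
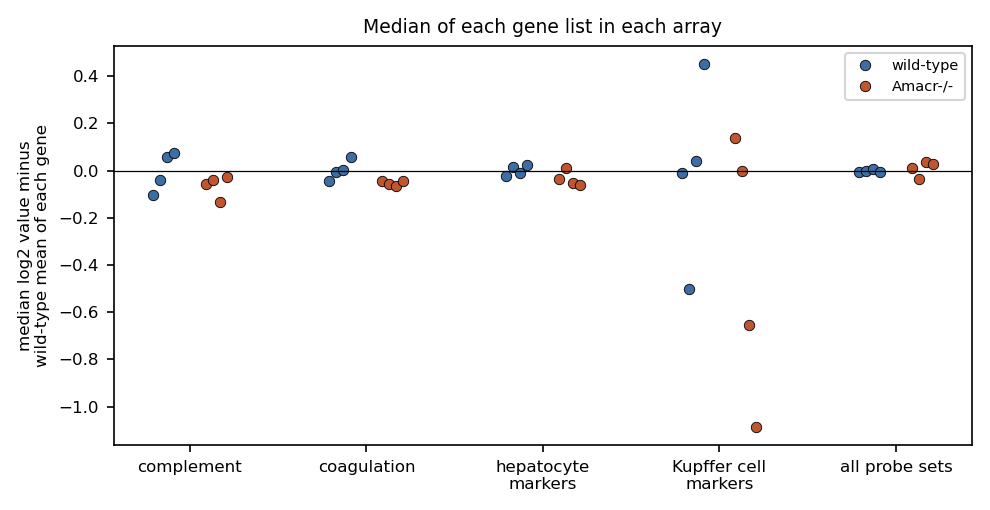
Median over each gene list of the log2 value minus the gene's wild-type mean, 1 point per array, wild-type at left and Amacr-/- at right of each list, replicates 1 to 4 from left to right. Complement and coagulation medians stay between -0.13 and 0.08 in all 8 arrays, while Kupffer cell markers range from -1.09 to 0.45.

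Other genes of the pathways were read from lists outside the 43. Of 18 measured further complement genes, 14 had a lower mean and 0 passed, with a median difference of -0.24. Those of the C1q chains, which macrophages make, were C1qa with -0.43, C1qb with -0.38 and C1qc with -0.34, and none had an adjusted p under 0.6. Kupffer cell markers, among them these 3, had a lower mean in 10 of 10, with a median difference of -0.38 and 0 calls. The mean log2 level of those markers lay between 8.79 and 9.78 in wild-type and between 8.203 and 9.433 in knockout arrays, highest in wild-type replicate 4 for 9 of 10 and lowest in knockout replicate 4 for 10 of 10. Their part in the complement values was not tested. Markers of sinusoidal endothelial cells, stellate cells, cholangiocytes, neutrophils, lymphocytes and platelets had median differences of -0.02, 0.16, 0.07, 0.06, -0.11 and -0.01, with 0 calls in each list. By array, the stellate cell median was 0.61 in knockout replicate 2, the highest array for 6 of 8 markers, and between -0.23 and 0.18 in the other knockout arrays. The cholangiocyte median was also highest in knockout replicate 2, at 0.395. The part of these cells in the complement and coagulation values was not tested. The hepatocyte-made subunit genes C1ra, at -0.26, and C1s1, at -0.24, and the membrane inhibitor Cd59a, at -0.32 (limma adjusted p = 0.439), did not pass either. The 4 further complement genes with a higher mean were the membrane inhibitors Cd46, at 0.235, and Cr1l, at 0.0825, and Colec10, at 0.2175, and Cr2, at 0.085.

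Of 23 measured further genes of haemostasis, 0 passed, and 1 was higher and 2 were lower without overlap, or 13% in all, against 6.67% of all probe sets and 13.7% of those with a mean of at least 10. The mean log2 level of the list lay between 7.91 and 8.05 in wild-type arrays, so the brighter probe sets do not match it in level. The genes without overlap, Tfpi2, Hgfac and Lman1, had means above 10 in both genotypes. Tfpi2, an inhibitor of plasmin and of the tissue factor route, was 10.59, 10.65, 10.62 and 10.87 in wild-type arrays and 11.42, 11.70, 11.21 and 11.22 in knockout arrays. All knockout arrays lay above all wild-type arrays, and the difference was 0.71, or 1.63-fold (SE 0.12, limma adjusted p = 0.0712). That p ranged from 0.0304 to 0.254 over the 17 alternatives. Hgfac, a protease related to factor XII, differed by -0.40 (SE 0.09, limma adjusted p = 0.140). Lman1, the cargo receptor known to carry factors V and VIII out of the endoplasmic reticulum, was 11.11, 11.20, 11.25 and 11.13 in wild-type arrays and 10.82, 10.72, 10.93 and 11.06 in knockout arrays. Its difference was -0.29 (SE 0.08, limma adjusted p = 0.241), and its genotypes did not overlap. Mcfd2, its partner in that receptor, differed by -0.04 with overlapping genotypes, as did F8 with -0.03.

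Of 15 measured regulators of these genes, 13 had a lower mean, or 86.7%, and 0 passed. Of all probe sets 43.8% had a lower mean, and of those with a mean of at least 10 51.2%. The genotypes did not overlap for 2 of the 15, or 13.3%, against 6.67% of all probe sets and 13.7% of those with a mean of at least 10. The mean log2 level of the regulators lay between 9.28 and 9.74 in wild-type arrays, below that of the brighter probe sets. Foxa3, a forkhead factor of hepatocytes, was 9.76, 10.31, 10.29 and 9.64 in wild-type arrays and 9.36, 9.40, 9.52 and 9.64 in knockout arrays, so that the groups met at 9.64. Its difference was -0.52 (SE 0.16, limma adjusted p = 0.270). Nr1h4, which encodes FXR, differed by -0.49 (SE 0.11, limma adjusted p = 0.136), and its genotypes did not overlap. Nr0b2, the small heterodimer partner that FXR is known to induce, was 10.09, 10.08, 9.78 and 9.97 in wild-type arrays and 9.55, 9.71, 8.92 and 9.43 in knockout arrays. Its genotypes did not overlap either, and the difference was -0.58 (SE 0.16, limma adjusted p = 0.225). Whether these regulators bear on the values of the complement and coagulation genes was not tested. The median of the regulators relative to their wild-type means was -0.46 in knockout replicate 2 and between -0.11 and -0.09 in the other knockout arrays. Knockout replicate 2 was the lowest array for 6 of the 15, or 40%, against 24.5% of all probe sets.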

How the data were processed

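Liver RNA from 4 wild-type and 4 Amacr-/- mice was measured on 1 array each. The authors deposited log2 values made with RMA, per the submitters' processing notes, which give no version; other upstream steps and the genome build were not given here. Of 16556 probe sets, 64 controls were left out. Members were matched by gene symbol through the platform annotation or, for 3, by Entrez number through RefSeq. The test was limma 3.58.1 under R 4.3.3 (linear model on genotype, empirical Bayes without trend, two-sided), adjusted by Benjamini-Hochberg over 16492 probe sets, threshold 0.05. The steps were tested on simulated data. Array number limits the precision, with a median SE of 0.09 over all probe sets tested and 0.08 over the 41 members. The table holds no detection or saturation flags and no scan dates. The labels call the arrays biological replicates. The members, lists and tests were chosen with earlier results of these data known. Values in every array were given for members with an unadjusted p under 0.05, without overlap, or among the 4 largest differences of either cascade. They were also given for those fixed as central (Fga, Fgb, Fgg, C3, Hc, F2, Plg). Others named are members, or genes of the fixed lists with an unadjusted p under 0.05 or no overlap. C1qa, C1qb, C1qc, C1ra, C1s1, Cd46, Cr1l, Colec10, Cr2, Mcfd2, Hp, Saa1, Saa2, Saa3 and Saa4 were chosen after their values were seen. Alternatives left out arrays, changed the variance prior, weights, scaling and filters, or added a replicate block. Promoters came from RefSeq, GRCm38.p6.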

Additional observations from a re-analysis of the deposited data

Results flagged for a closer look

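Of 118 groups of 4 values examined, 9 held an array far from the other 3 of its genotype, and chance gives about 1 in 20. In wild-type replicate 4, Mbl1 was 11.28, and its other values in that genotype were 11.47 to 11.49. Masp2 was 10.74 in knockout replicate 3 against 10.65 to 10.66. F5 was 11.89 in knockout replicate 4 against 11.99 to 12, on the side away from wild type. Fgb was 14.18 in wild-type replicate 1 against 14.21 in each of the others, and Plg 13.88 in wild-type replicate 4 against 13.83, gaps of a few steps of the deposited values. Serpinf2 was 12.80 in knockout replicate 4 against 12.68 to 12.70. Outside the members, Hgfac was 12.04 in wild-type replicate 4 against 11.73 to 11.76, Fgl1 was 11.53 in knockout replicate 2 against 10.59 to 10.75, and Amacr was 11.68 in wild-type replicate 4 against 12.03 to 12.06.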

How the results depend on the processing

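No member was called in any of 17 alternatives, and 660 of 697 member values kept their direction. The 11 members that turned sign had differences between -0.0825 and 0.0875. Leaving out single arrays, the lowest and highest differences were -0.024 and 0.012 for Masp2, -0.066 and 0.34 for Cfd, -0.265 and 0.015 for C6, -0.18 and 0.066 for C8b, -0.19 and 0.039 for F11, -0.035 and 0.038 for F10, -0.1375 and 0.096 for F8, -0.0425 and 0.0175 for Fgb, -0.0925 and 0.051 for Proz, and -0.046 and 0.0042 for Serpinf2. With knockout replicate 2 and wild-type replicate 4 both left out, differences turned to 0.14 for C8b, 0.053 for F11, 0.04 for F10, 0.06 for Proz, 0.013 for Serpind1 and 0.013 for Serpinf2, and the complement median went to -0.037. With array weights they turned to 0.062 for C8b, 0.011 for F11, 0.0090 for F10 and 0.021 for Proz, and with quantile normalization applied again to 0.00031 for Masp2 and 0.0048 for F10. The cause of these turns was not tested. Without single arrays the complement median ran from -0.17 to -0.07 and the coagulation median from -0.061 to -0.033. The 19 probe sets called over the whole table became 2 to 39 without single arrays, 39 without both arrays named above, 75 with array weights, 38 with quantile normalization again and 43 with a mean of at least 6. The labels do not say whether replicate numbers pair the animals. Correlations of deviations were 0.05, -0.03, 0.09 and -0.12 for numbers 1 to 4, which cannot decide it. With replicate number as a block 1 probe set and 0 members were called. The background among probe sets with a mean of at least 10, median -0.005, was chosen after seeing the data. Tfpi2 passed with array weights (limma adjusted p = 0.0304) and without both arrays (0.0358), its adjusted p reaching 0.254 elsewhere. Because RMA equalises the arrays, a change common to most genes could not be read here.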

Other observations

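Acute phase genes, which inflammation raises in liver together with fibrinogen and C3, pointed in both directions. Of 20 measured, 0 passed over all probe sets, 11 had a higher and 8 a lower mean, and the median difference was 0.01. At an unadjusted p under 0.05 there were 7 of 20, or 35.0%, against 11.3% of all probe sets and 18.9% of those with a mean of at least 10. These were Fgl1, Itih4 and Steap4 with a lower mean and Orm3, Apcs, Mt1 and Mt2 with a higher one. Fgl1, a secreted protein related to fibrinogen, was 11.94, 11.82, 12.10 and 12.13 in wild-type arrays and 10.75, 11.53, 10.59 and 10.67 in knockout arrays. The difference was -1.11, or 2.16-fold (SE 0.19, limma adjusted p = 0.0761), and without knockout replicate 2 it was -1.33 with an adjusted p of 0.00279. Its adjusted p over the 17 alternatives reached 0.234. Itih4 (-0.26) and Steap4 (-0.45) also had all knockout values below all wild-type values. With Fgl1 these made 3 of 20 without overlap, or 15%, against 6.67% of all probe sets and 13.7% of those with a mean of at least 10.

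Orm3, an orosomucoid, was 6.66, 6.97, 7.24 and 7.42 in wild-type arrays and 8.73, 7.38, 8.49 and 8.39 in knockout arrays, a difference of 1.18 (SE 0.28, limma adjusted p = 0.177). Without knockout replicate 2 it was 1.46 with an adjusted p of 0.0316, and over the 17 alternatives that p reached 0.399. The metallothionein gene Mt1 was 8.88 and 9.72 in knockout replicates 1 and 2 and 12.40 and 11.37 in replicates 3 and 4, against 8.17 to 9.40 in wild type, and Mt2 showed the same split with 7.53, 7.88, 10.80 and 9.83. Apcs, for serum amyloid P, was 11.33 in knockout replicate 1 and between 12.22 and 12.72 in the other knockout arrays, against 11.23 to 11.72 in wild type, a difference of 0.75 (SE 0.27, limma adjusted p = 0.345). Hp, for haptoglobin, differed by 0.0075. The serum amyloid A genes pointed in both directions. Saa1 differed by 0.44 (limma adjusted p = 0.661) and Saa2 by 0.19, but Saa3 by -0.78 (limma adjusted p = 0.453) and Saa4 by -0.16. Wild-type replicate 4 gave the highest wild-type value of Saa1 (11.98), Saa2 (9.43) and Saa3 (10.19). Knockout replicate 2 gave the highest knockout value of Saa1 (12.03) and Saa2 (9.47), but the lowest of Saa3 (7.75). Both gave the lowest Saa4 of their genotype. Of 20 genes, wild-type replicate 4 was the highest array for 5 and lowest for 0. Knockout replicate 2 was highest for 6 and lowest for 3. Any bearing of this on the complement and coagulation values was not tested.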
